A study of Mus musculus with 2 samples.

Results

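The 10 genes described here mark basophils, mast cells and eosinophils, and their transcripts were measured in microglia sorted from the mouse brain. The members were chosen by their symbols (Prss34, Mcpt8, Cpa3, Fcer1a, Ms4a2, Gata2, Epx, Prg2, Il5ra and Tpsb2), with their counts in these same libraries already known, so the values below are a description and no test was run on them. All 10 were found among the 53801 Ensembl genes of the count files. Microglia came from Cx3cr1(CreER/wt) mice, in which 1 allele of the Cx3cr1 locus holds a Cre that tamoxifen activates, and which served as the wild-type background of the study. Tamoxifen was injected at 75 mg/kg per day for 4 days, sham surgery followed 14 days after the first injection, and the left hemisphere was taken 3 days after surgery. The sort kept CD11b+ cells with low CD45 that were negative for CD11c and Ly6G. No marker specific to basophils, mast cells or eosinophils was part of this gate. How far its CD11b and CD45 limits keep such cells out was not tested. The labels describe male mice aged 8 to 10 weeks, whereas the study's methods give an older range and both sexes, and the labels record the treatment as none although the titles name sham surgery. There were 2 sham libraries, each from 1 mouse, and libraries from mice with middle cerebral artery occlusion were not analysed here.

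Basophils, mast cells and eosinophils are granule-rich cells of allergic and anti-parasite immunity that arise from bone marrow progenitors. Basophils and eosinophils circulate in blood, whereas mast cells mature in tissues, in the brain mostly in the meninges and around vessels. Basophils and mast cells share the high-affinity IgE receptor and depend on GATA factors, but in the mouse they store different proteases, and eosinophils are told apart by a peroxidase, basic granule proteins and the receptor for IL-5.

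Library 1 held 23381026 counts on genes and library 2 held 41142609, which is 1.76 times as many. Levels are given as counts per 1000000 counts on genes (CPM). Where no read was counted, a floor of 3 counts was set. This is 0.128 CPM at the depth of library 1 and 0.0729 CPM at that of library 2. The exact interval of 0 counts reaches higher, to 0.158 CPM in library 1 and 0.0897 CPM in library 2. Ratios given as at least divide the level in library 2 by the floor of library 1. They would be smaller at the upper end of that interval. Intervals are exact 95% Poisson or binomial intervals, which include the error of counting and leave out how much mice vary. Genes of microglia were abundant in both libraries, their sum over 10 markers being 40301 CPM in library 1 against 47521 CPM in library 2. Library 2 stood apart by its granulocyte transcripts, since 9 neutrophil granule genes summed to 2370 CPM in library 1 against 37776 CPM in library 2. In such bulk RNA, fewer cells of a type and less RNA per cell cannot be told apart.

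The basophil proteases were the members that differed most between the libraries. Prss34 (ENSMUSG00000056399, chromosome 17 of GRCm38, 25298394 to 25300161) encodes a tryptase-like serine protease of basophils, also known as mast cell protease 11. Prss34 had 0 counts in library 1 against 4743 counts in library 2, or 115 CPM (interval 112 to 119). All reads of Prss34 thus came from the mouse of library 2, and the level there was 898-fold higher than the floor of library 1. At the level of library 2, the depth of library 1 would have given 2695 counts. Mcpt8 (ENSMUSG00000022157, chromosome 14, 56082166 to 56085273) encodes mast cell protease 8, a granule protease which despite its name is made by basophils. Mcpt8 had 0 counts in library 1 against 1484 counts in library 2, or 36.1 CPM (interval 34.3 to 38), at least 281-fold higher. The same mouse was high for both proteases, and 843 counts of Mcpt8 would have been seen in library 1 at the level of library 2. The mean of 2 such libraries was 57.6 ± 81.5 CPM for Prss34 and 18 ± 25.5 CPM for Mcpt8 (SD, n = 2 libraries). With 0 counts in 1 of 2 libraries, an SD larger than its mean follows from the 0.

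**Figure D1:**
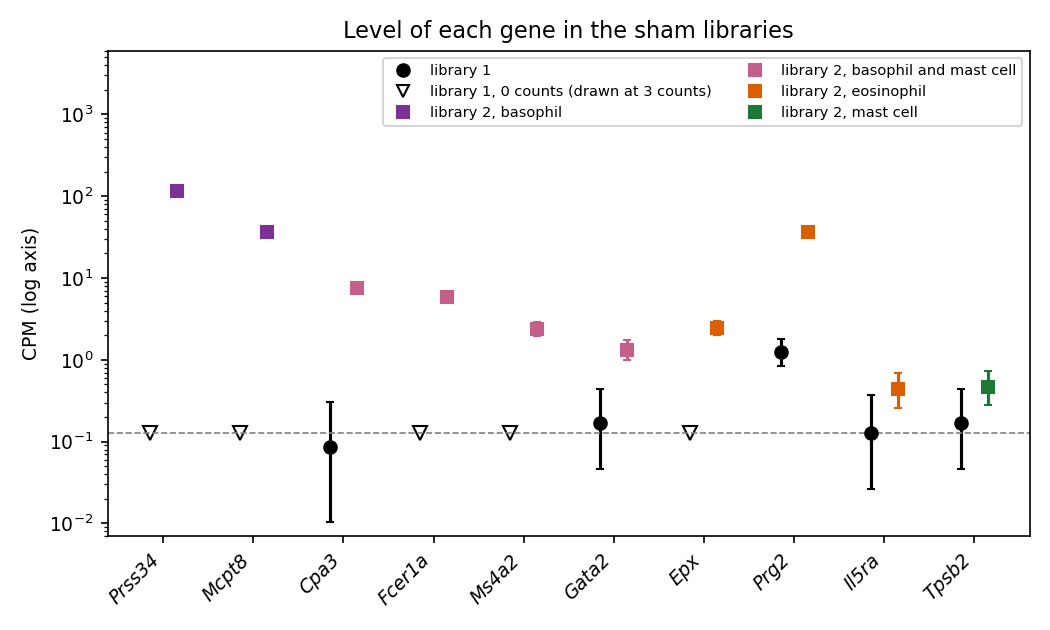
Level of each of the 10 genes in CPM on a log axis, in library 1 (black) and library 2 (coloured by the cell type the gene marks), with exact 95% Poisson intervals of the counts. Open triangles mark genes with 0 counts, drawn at the floor of 3 counts (dashed line, 0.128 CPM in library 1). All 10 genes lie higher in library 2, from 0.438 CPM for Il5ra to 115 CPM for Prss34, and 5 genes have no counts in library 1.

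Genes shared by basophils and mast cells were also found mainly in library 2. Cpa3 (ENSMUSG00000001865, chromosome 3, 20215620 to 20242181) encodes carboxypeptidase A3, a granule exopeptidase of both cell types. Cpa3 had 2 counts in library 1 against 312 counts in library 2, or 0.0855 and 7.58 CPM, a ratio of 88.7 (interval 24.3 to 735). Library 2 was the high library again, and the width of the interval comes from the 2 counts of library 1. Fcer1a (ENSMUSG00000005339, chromosome 1, 173221284 to 173227214) encodes the IgE-binding alpha chain of the high-affinity IgE receptor. Fcer1a had 0 counts in library 1 against 243 in library 2, or 5.91 CPM (interval 5.19 to 6.7), at least 46-fold higher. Ms4a2 (ENSMUSG00000024680, chromosome 19, 11615523 to 11623719) encodes the beta chain, which amplifies the signal of this receptor. Ms4a2 had 0 counts in library 1 against 99 in library 2, or 2.41 CPM (interval 1.96 to 2.93), at least 18.8-fold higher. Both chains that distinguish basophils and mast cells from other myeloid cells were therefore without a read in library 1, where 138 counts of Fcer1a and 56.3 of Ms4a2 would have been seen at the level of library 2. Gata2 (ENSMUSG00000015053, chromosome 6, 88193891 to 88207032) encodes a zinc finger transcription factor of haematopoietic progenitors that basophils and mast cells keep. Gata2 had 4 counts in library 1 against 55 in library 2, or 0.171 and 1.34 CPM, a ratio of 7.81 (interval 2.88 to 29.7). It was low in both libraries, and the intervals of its levels (0.0466 to 0.438 and 1.01 to 1.74 CPM) did not overlap. Summed, the 6 genes of basophils or of basophils and mast cells had 0.257 CPM in library 1 against 169 CPM in library 2, and without library 2 their mean of 84.4 ± 119 CPM (SD, n = 2) falls to the value of library 1.

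Of the 3 eosinophil genes, Prg2 had reads in both libraries, Epx in library 2 alone, and Il5ra few in either. Prg2 (ENSMUSG00000027073, chromosome 2, 84980461 to 84983632) encodes the eosinophil major basic protein, which basophils and mast cells also make in smaller amounts. Prg2 was the member with the most reads in library 1, with 29 counts there against 1518 counts in library 2, or 1.24 and 36.9 CPM. Its ratio was 29.7 (interval 20.6 to 44.6), and its reads made up 69% of the 42 counts that all members had in library 1. Epx (ENSMUSG00000052234, chromosome 11, 87864000 to 87875536) encodes eosinophil peroxidase, the most specific of these markers. Epx had 0 counts in library 1 against 101 in library 2, or 2.45 CPM (interval 2 to 2.98), at least 19.1-fold higher. Prg2 was thus detected in both mice and Epx in the mouse of library 2 alone. At the level of library 2, 57.4 counts of Epx would have been seen in library 1. The bound of 19.1 for Epx lies below the ratio of 29.7 for Prg2. These counts therefore do not show that Epx differed more between the mice than Prg2. Il5ra (ENSMUSG00000005364, chromosome 6, 106710357 to 106749037) encodes the alpha chain of the IL-5 receptor, found on eosinophils and on some basophils and B cells. Il5ra had 3 counts in library 1 against 18 in library 2, or 0.128 and 0.438 CPM. Its ratio of 3.41 had an interval of 0.995 to 18.1, so a difference was not detectable at this depth. Summed, the eosinophil genes had 1.37 CPM in library 1 against 39.8 CPM in library 2 (mean 20.6 ± 27.2, SD, n = 2), and Prg2 supplied most of the reads in each.

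The promoters of the 5 members without a read in library 1 are shown, because the GATA factors named above bind a short motif. A count of 0 also depends on the level of a gene, and Cpa3, with 2 counts there, is not among them. Sequences are from RefSeq on GRCm38.p6, 5′ to 3′ on the strand of the gene. They run from 250 bases before the RefSeq start of the gene to 50 bases after it. For Mcpt8 and Fcer1a this start differs from that of the coordinates printed above. Capitals mark GATAA, the core of the GATA motif, or its reverse complement TTATC, which is GATAA on the opposite strand. The windows are chr17:25298144-25298443 (+) for Prss34, chr14:56085148-56085447 (−) for Mcpt8, chr1:173227180-173227479 (−) for Fcer1a, chr19:11623670-11623969 (−) for Ms4a2 and chr11:87875487-87875786 (−) for Epx.
Prss34: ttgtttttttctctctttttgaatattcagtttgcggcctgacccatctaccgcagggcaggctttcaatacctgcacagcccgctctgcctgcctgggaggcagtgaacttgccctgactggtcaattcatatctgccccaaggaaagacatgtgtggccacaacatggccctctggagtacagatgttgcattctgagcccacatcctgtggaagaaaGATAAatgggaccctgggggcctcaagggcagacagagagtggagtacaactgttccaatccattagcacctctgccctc
Mcpt8: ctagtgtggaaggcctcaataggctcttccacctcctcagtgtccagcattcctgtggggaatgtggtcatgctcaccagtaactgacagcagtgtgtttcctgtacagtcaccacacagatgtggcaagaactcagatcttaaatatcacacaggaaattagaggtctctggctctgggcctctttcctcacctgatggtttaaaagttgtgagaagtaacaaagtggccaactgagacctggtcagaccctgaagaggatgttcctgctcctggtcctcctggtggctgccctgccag
Fcer1a: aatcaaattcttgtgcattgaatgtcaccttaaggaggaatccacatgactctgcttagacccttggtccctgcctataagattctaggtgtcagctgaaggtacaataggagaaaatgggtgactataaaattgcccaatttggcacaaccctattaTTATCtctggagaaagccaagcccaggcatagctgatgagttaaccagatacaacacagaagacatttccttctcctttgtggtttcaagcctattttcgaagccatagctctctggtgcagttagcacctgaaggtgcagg
Ms4a2: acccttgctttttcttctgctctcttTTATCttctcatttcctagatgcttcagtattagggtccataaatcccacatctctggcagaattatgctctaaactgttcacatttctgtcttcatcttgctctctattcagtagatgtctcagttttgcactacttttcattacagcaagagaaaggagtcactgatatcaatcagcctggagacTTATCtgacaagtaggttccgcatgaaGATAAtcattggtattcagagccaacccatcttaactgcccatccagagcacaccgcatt
Epx: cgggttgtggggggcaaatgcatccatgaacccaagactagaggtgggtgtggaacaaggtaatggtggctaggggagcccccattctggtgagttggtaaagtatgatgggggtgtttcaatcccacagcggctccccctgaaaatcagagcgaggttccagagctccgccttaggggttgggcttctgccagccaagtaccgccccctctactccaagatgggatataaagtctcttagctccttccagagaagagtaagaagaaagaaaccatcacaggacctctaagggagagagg

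A promoter was at hand for 8 of the 10 members. GATAA occurred on either strand in the windows of 5 of these 8 genes, Prss34, Cpa3, Fcer1a, Ms4a2 and Il5ra, and in 25.4% of all 32851 promoters of the same length. Prss34 holds it 30 bases before the RefSeq start, Cpa3 45 bases, Fcer1a 92 bases and Il5ra 73 bases before. Ms4a2 holds it 3 times, 224, 37 and 10 bases before. Mcpt8, Gata2 and Epx have no GATAA in these windows. The RUNX core TGTGGT occurred in 3 of the 8 genes (Mcpt8, Cpa3 and Fcer1a) and in 16.8% of all promoters, and the C/EBP pattern TTGCNNAA in Fcer1a and in 10.8% of all promoters, each counted on both strands. No match of these patterns overlapped another. Such matches describe letters in these windows and do not show binding.

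Tpsb2, the member that marks mast cells, stayed near the limit of detection in both libraries. Tpsb2 (ENSMUSG00000033825, chromosome 17, 25366550 to 25368094) encodes mast cell protease 6, the tryptase of connective tissue mast cells. It had 4 counts in library 1 against 19 in library 2, or 0.171 CPM (interval 0.0466 to 0.438) and 0.462 CPM (interval 0.278 to 0.721). The ratio was 2.7 with an interval of 0.897 to 10.9, so a difference between the libraries was not detectable at this depth. Of the 12 further mast cell genes examined, 5 had at least 10 counts in at least 1 library. The peritoneal mast cell receptor genes Mrgprb1 and Mrgprb2, the mucosal mast cell protease genes Mcpt1 and Mcpt2, and Tpsg1 had 0 counts in both libraries. Tpsab1, the neighbouring tryptase gene, had 0 and 5 counts, and Mcpt4, a chymase gene, had 0 and 8. Cma1, which encodes mast cell protease 5, was the exception, with 0 counts in library 1 and 46 in library 2, at least 8.71-fold higher. Kit, the stem cell factor receptor that mast cells keep and mature basophils lose, had 23 and 46 counts, a ratio of 1.14 (interval 0.675 to 1.96). Ndst2, which sulfates heparin in mast cell granules but is expressed far beyond them, was lower in library 2 (141 and 31.4 CPM), with a log2 ratio of −2.17 that became −1.13 and was no longer past 4-fold after adjustment for GC content and length. Mitf (29.2 and 16.6 CPM) and Slc18a2 (7.66 and 5.32 CPM) differed by less than 4-fold.

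The differences were then set beside those of all genes. Among the 15736 genes with at least 10 counts in at least 1 library, called counted genes here, 3.97% were at least 4-fold higher in library 2 and 8.38% were at least 4-fold lower, with counts under 3 set to 3. Of the 10 members, 8 were at least 4-fold higher and 0 were lower. All 10 members passed this count filter, 9 of them only through library 2, so the count follows in part from how the genes entered it. The median log2 ratio of the members was 4.57 in the sense of library 2 over library 1, and that of all counted genes was −0.18. Of the members past 4-fold, Gata2 was the nearest to it, and of those short of it, Il5ra was, with log2 ratios of 2.97 and 1.77. Adjustment for GC content and length moved Gata2 to 4.36 and Il5ra to 1.70. A count of 0 in library 1 was found for 5 members and for 1.77% of the counted genes, and at most 3 counts in library 1 together with a 4-fold higher level in library 2 for 6 members and for 1.53% of the counted genes. The split of all counted genes depended on scaling. It was 4.87% higher and 6.29% lower with TMM library sizes, 5.26% and 5.58% with DESeq2 size factors, and 4.86% and 3.96% after adjustment for GC content and length. The member count was 8, 9 and 8 in these settings, the ninth being Il5ra. With 2 libraries from 1 group, no test of a difference between mice beyond the spread of mice exists, and no ratio can be formed without either library.

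**Figure D2:**
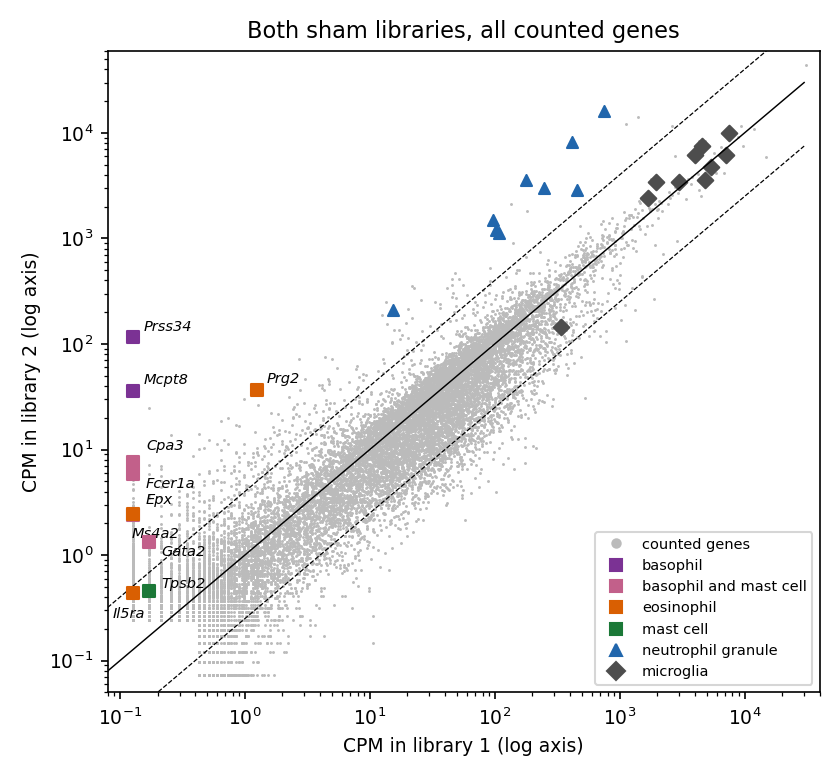
CPM in library 1 (horizontal) and library 2 (vertical) for the 15736 counted genes, both on log axes, with counts under 3 drawn at 3. The solid line marks equal levels and the dashed lines a 4-fold difference. The basophil genes lie at the left edge, with Prss34 at 115 CPM in library 2, the neutrophil granule genes lie above the upper dashed line, and the microglia markers lie between the dashed lines.

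Markers of some other blood cells moved in the same direction, and their part in the values of the members was not tested. All 9 neutrophil granule genes passed 4-fold in the sense of library 2, with log2 ratios from 2.67 to 4.42. Of 8 mature neutrophil genes, 5 were at least 4-fold higher (3314 and 28878 CPM summed), and Csf3r had a log2 ratio of −0.55, or 0.12 after adjustment for GC content and length. Of 7 erythroid genes, 5 were at least 4-fold higher, with 9 and 628 counts in sum (0.385 and 15.3 CPM). The summed ratio was 15.9 (interval 15.8 to 16.1) for neutrophil granule genes and 657 (interval 302 to 1791) for the 6 genes of basophils or of basophils and mast cells. The second ratio rests on 6 counts in library 1, and Prss34 supplied 4743 of the 6936 counts in library 2. Its genes were chosen with their counts known, so no conclusion is drawn from the gap between these ratios. Monocyte genes (447 and 501 CPM over 5 genes) and platelet genes (124 and 126 CPM over 5 genes) had sums close to each other, although single genes did not. Nearly all platelet reads came from Pf4 (1866 and 2655 counts) and Gp9 (1019 and 2492), whereas Ppbp had 4 and 4 and Gp1bb 0 and 1. Ly6c2 had a log2 ratio of 1.74 and F13a1 one of −1.80 among the monocyte genes, and the platelet gene Itga2b had 2 and 20 counts, a ratio of 5.68 (interval 1.38 to 50.1). Of 7 B cell genes, 1 was at least 4-fold higher, with 13324 and 32003 counts in sum, nearly all from Ighm. Of 9 T and NK cell genes, 2 were at least 4-fold higher, Cd3d (3 and 109 counts) and Nkg7 (37 and 527). Of the other T cell genes there, Cd3e and Cd8a had 0 counts in both libraries, Cd3g had 0 and 7, Trac 1 and 0, and Cd4 104 and 115. Microglia markers ranged from −1.20 to 0.80 on the log2 scale, and 0 of 10 passed 4-fold in either direction.

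Apart from the ranking by counts given further below, levels were compared between genes per length, as CPM per kb of the longest transcript. This was done only in library 2, where every member had more than 3 counts. Prss34 ranked first with 94.5 CPM per kb (interval 91.8 to 97.2), which placed it at percentile 95.3 of the 15109 genes with at least 10 counts in that library. Prg2 followed with 44 CPM per kb (interval 41.8 to 46.3) and Mcpt8 with 38.2 (interval 36.3 to 40.2). These 3 granule protein genes stood above the rest, and their intervals did not overlap each other. Fcer1a had 5.92 CPM per kb and Cpa3 had 5.23, and these neighbours in the order did not differ beyond counting error. Ms4a2 (1.01) and Epx (0.913) formed the next pair with overlapping intervals, and Gata2 (0.374) and Tpsb2 (0.358) the one after. Il5ra was lowest with 0.122 CPM per kb (interval 0.0725 to 0.193). Per length, Prss34 was 2.48 times as high as Mcpt8 (interval 2.33 to 2.63) and 264 times as high as Tpsb2 (interval 169 to 438), and Cpa3 was 14.6 times as high as Tpsb2 (interval 9.2 to 24.6). The alpha chain gene Fcer1a was 5.88 times as high as the beta chain gene Ms4a2 (interval 4.64 to 7.51). Among the eosinophil genes, Prg2 was 48.2 times as high as Epx (interval 39.4 to 59.6) and Epx 7.46 times as high as Il5ra (interval 4.49 to 13.1). With merged exons as the length, 6 of the 10 places in the order were kept, and the pairs Ms4a2 and Epx, and Gata2 and Tpsb2, changed places.

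**Figure D3:**
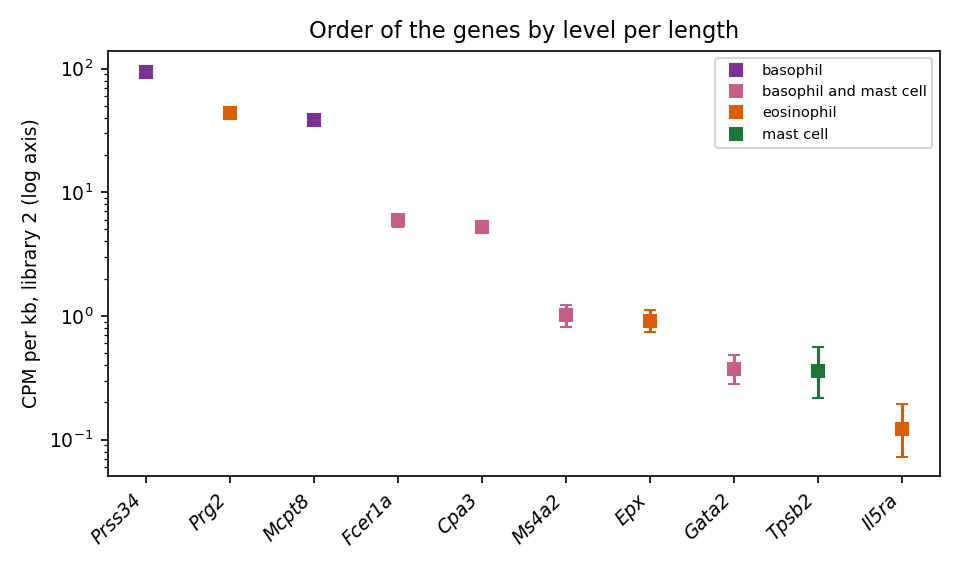
CPM per kb of the longest transcript in library 2 on a log axis, for the 10 genes in order of level and coloured by the cell type each marks. Bars are exact 95% Poisson intervals of the counts. Prss34, Prg2 and Mcpt8 lie between 38.2 and 94.5 CPM per kb, and the other 7 genes between 0.122 and 5.92.

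The members share little sequence with other genes. Of the 75-base windows of the longest transcripts, the length of 1 read, none of Prss34, Mcpt8, Cpa3, Fcer1a, Gata2, Epx, Prg2, Il5ra or Tpsb2 occurred in a transcript of another gene, and 38 windows of Ms4a2 (1.64%) occurred in Ms4a4b. Mcpt8 and Cpa3 each overlap a microRNA gene (Mir6949 and Mir7007), and no source used here says if the strand was used in counting.

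Genes that are not members but belong to the same cells or pathways were taken as 10 lists with 90 genes in all, 70 of them counted. Of these, 14 were at least 4-fold higher in library 2 and 8 at least 4-fold lower, beside 3.97% and 8.38% of all counted genes. Their median log2 ratio was 0.19, beside −0.18 for all counted genes. The same shares are the background of the counts in each list below, and most lists are too short to set against them. Some of the 14 higher genes passed the count filter only through library 2, so their number follows in part from that filter. With at least 10 counts required in both libraries, 6 list genes were at least 4-fold higher, beside 2.04% of all genes kept. Among 8 other basophil genes, 5 were counted, 3 were at least 4-fold higher and 0 were lower. Cd200r3, an activating receptor of basophils and mast cells, had 0 and 132 counts (at least 25-fold higher), and Cyp11a1, a steroid-synthesis enzyme also found in basophils and mast cells, had 0 and 83 counts (at least 15.7-fold higher). Hdc, which makes histamine in basophils and mast cells and is also expressed in neutrophil precursors, had 846 and 9002 counts, or 36.2 and 219 CPM, a ratio of 6.05 (interval 5.63 to 6.5). Hdc thus had reads in both mice, unlike the proteases and the alpha and beta chains of the IgE receptor. The cytokine gene Il4, which resting basophils transcribe, had 8 and 41 counts, a ratio of 2.91 (interval 1.35 to 7.19), and Il13 had 1 and 0. Itga2, which encodes the basophil surface marker CD49b, had 0 and 3 counts. Of the remaining genes of this list, Ptgdr2 had 1 and 1 counts, and Il6 had 101 and 540, a ratio of 3.04 (interval 2.45 to 3.8).

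Other eosinophil genes were higher or near equal in library 2. Of 8 genes, 7 were counted, 3 were at least 4-fold higher and 0 were lower, with a median log2 ratio of 1.40. Prg3, the gene of the second major basic protein, had 2 and 62 counts, a ratio of 17.6 (interval 4.68 to 149). The eosinophil ribonuclease gene Ear6 had 9 and 162 counts, a ratio of 10.2 (interval 5.26 to 22.8), and Ear1 had 13 and 205, a ratio of 8.96 (interval 5.13 to 17.1). Counts of Ear1 and Ear2 are uncertain, because 39.3% and 23.4% of their windows of read length occur in related genes. The surface receptor genes moved less. Siglecf, which is also expressed by microglia and other macrophages in some states, had 36.3 and 41.8 CPM, a ratio of 1.15 (interval 1.06 to 1.25), and the eotaxin receptor gene Ccr3 had 3.64 and 8.85 CPM, a ratio of 2.43 (interval 1.92 to 3.12). Alox15 had 5.9 and 15.6 CPM.

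The downstream genes of the IgE receptor were read beside its alpha and beta chains. Those chains reached 5.91 CPM (Fcer1a) and 2.41 CPM (Ms4a2) in library 2. Most of the downstream genes had far higher levels in both libraries, so a rise of that size would not show in their ratios. These ratios therefore cannot tell if the downstream genes rose with those chains. Of 12 signalling genes, 11 were counted, 0 were at least 4-fold higher and 4 were at least 4-fold lower. Fcer1g, the gamma chain shared with the Fc receptors of microglia, had 1832 and 1915 CPM, a ratio of 1.05 (interval 1.03 to 1.06). The kinase gene Lyn (816 and 798 CPM) and the adaptor gene Lcp2 (349 and 344 CPM) were close to equal. Lat, the membrane adaptor of mast cells and T cells, had 0 and 7 counts. The lower genes were Fyn, Gab2, Plcg1 and Inpp5d, with log2 ratios from −2.49 to −2.04. After adjustment for GC content and length, Gab2, Plcg1 and Inpp5d lay between −0.85 and −0.66 with Fyn still the lowest of the 4, and Syk, with 191 and 67.1 CPM, moved from −1.51 to −0.02. Of the 3 receptor chains, the gamma chain was thus at similar levels in both libraries, and the alpha and beta chains had reads in library 2 alone.

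Among 11 cytokine receptor genes, 10 were counted, 1 was at least 4-fold higher and 1 at least 4-fold lower. Il18r1, a receptor chain for IL-18 found on basophils, mast cells and lymphocytes, had 0 and 92 counts, at least 17.4-fold higher. Il3ra, the specific chain of the receptor for the basophil growth factor IL-3, had 26 and 46 counts, a ratio of 1.01 (interval 0.609 to 1.69), and its partner chains Csf2rb (247 and 70.4 CPM) and Csf2rb2 (66.2 and 9.77 CPM) were lower in library 2. Adjustment for GC content and length moved Csf2rb from −1.81 to −0.32 on the log2 scale and Csf2rb2 from −2.76 to −1.41, so that the 4-fold lower call of Csf2rb2 was lost. Il1rl1, the IL-33 receptor gene, had 165 and 146 counts, or 7.06 and 3.55 CPM. The ligand genes Il3, Il5, Csf2 and Il9 had 0 counts in both libraries.

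Of 11 transcription factor genes, 2 were at least 4-fold higher and 2 at least 4-fold lower. Gata1, the partner factor of Gata2 in basophils, mast cells, eosinophils and erythroid cells, had 3 and 72 counts, a ratio of 13.6 (interval 4.48 to 67.7). Cebpe, a factor of late granulocyte maturation, had 67 and 629 counts, a ratio of 5.34 (interval 4.14 to 6.97). Zfpm1, the GATA cofactor FOG-1, had 282 and 32 counts, and Cebpa had 1577 and 321, both lower in library 2, with log2 ratios of −2.90 and −2.53 after adjustment for GC content and length. Mediator synthesis genes were near equal, with 0 of 6 counted genes past 4-fold in either direction and log2 ratios from 0.01 to 0.46, among them Alox5, Ltc4s, Hpgds and Ptgs1, which microglia also express. Of 7 relatives of the granule proteins, 6 were counted and 3 were at least 4-fold higher, and of 6 progenitor genes 1 was, Ms4a3, which had 3.72 and 22.7 CPM and marks progenitors of granulocytes and monocytes.

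**Figure D4:**
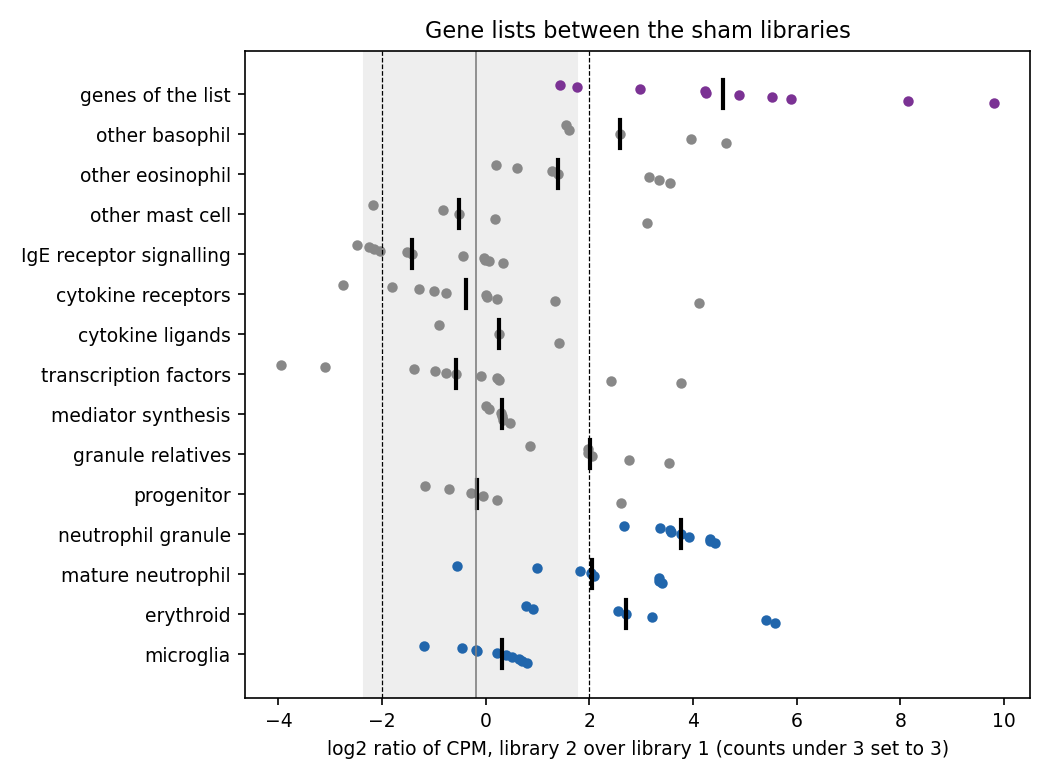
Log2 ratio of CPM, library 2 over library 1, for counted genes of each list, with counts under 3 set to 3. Each point is a gene, black bars are list medians, dashed lines mark 4-fold, the grey line is the median of all counted genes (−0.18) and the shaded band spans their percentiles 5 to 95 (−2.35 to 1.77). The 10 genes described here have the median 4.57, and the signalling genes of the IgE receptor lie at or below 0.33.

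Some members lie in clusters of related genes, and the counts of genes lying at least in part within 100 kb of a member were read from the same files. Prss34 lies in the tryptase cluster of chromosome 17, 68.2 kb from the start of Tpsb2. Of its 14 neighbours, 6 were counted and 0 were at least 4-fold higher in library 2, Prss28 had 0 and 4 counts and Tpsab1 0 and 5. Among the tryptase genes there, Prss34 alone passed 100 counts. Mcpt8 lies in the chymase cluster of chromosome 14, where 13 of 16 neighbours had at most 3 counts in library 2. The neighbour at least 4-fold higher was Ctsg, the cathepsin G gene of neutrophil precursors, with 23 and 467 counts, 17.3 kb from the start of Mcpt8. Prg2 lies beside Prg3, and Epx shares its neighbourhood with Mpo, the myeloperoxidase gene of neutrophil precursors, which had 355 and 4234 counts, a ratio of 6.78 (interval 6.08 to 7.57). Lpo, the lactoperoxidase gene between Mpo and Epx, had 0 counts in both libraries. Next to Ms4a2, Ms4a3 was at least 4-fold higher, whereas Ms4a6d, with 6234 and 10117 counts, had a log2 ratio of −0.12.

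**Figure D5:**
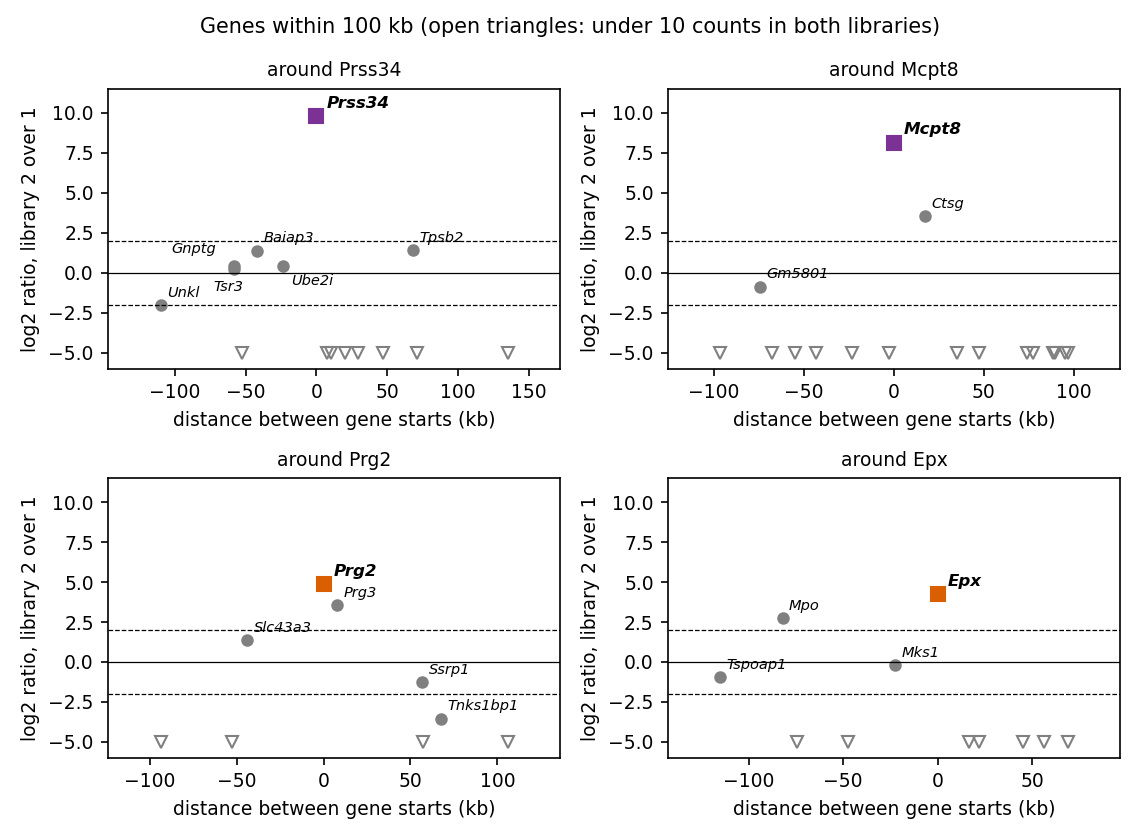
Log2 ratio of CPM, library 2 over library 1, for genes lying at least in part within 100 kb of Prss34, Mcpt8, Prg2 and Epx, against the distance between gene starts in kb, with counts under 3 set to 3. Open triangles are genes with under 10 counts in both libraries, drawn at the bottom without a value, and dashed lines mark 4-fold. Around Prss34 (9.81) and Mcpt8 (8.14) the counted neighbours lie at or below 3.53, and Prg3 (3.55) and Mpo (2.76) lie above 4-fold beside Prg2 and Epx.

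The genes with the most similar pattern were taken as those with at most 3 counts in library 1, ranked by their level in library 2. Of 37151 genes with at most 3 counts in library 1, 772 had at least 10 counts in library 2 and 20 had at least 100. Prss34 ranked first, Mcpt8 was in place 2 and Cpa3 in place 3, Fcer1a was in place 7, Epx in place 20, Ms4a2 in place 21 and Il5ra in place 297. The other genes among the first 10 were 1700047M11Rik (3 and 299 counts), Tmem45a2 (2 and 285), the beta-globin gene Hbb-bs (0 and 255), the alpha-globin gene Hba-a1 (1 and 225), the secretion factor gene Sytl1 (2 and 212) and the axonemal dynein gene Dnah6 (1 and 194). Of 3 members above 3 counts in library 1, Prg2 had 29 and Gata2 and Tpsb2 4 each. Likeness was read over 2 libraries only. The ranking was not adjusted for transcript length, which is 12652 bases for Dnah6 (0.373 CPM per kb) against 998 for Fcer1a (5.92 CPM per kb).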

How the data were processed

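RNA of sorted microglia was made into cDNA with the SMART-Seq HT kit and into libraries with Nextera XT, and sequenced as paired-end reads of 75 bases. The authors deposited whole-number counts of reads per Ensembl gene, 1 file for each library, without normalization. Per the labels and the submitters' processing notes, reads were aligned with HISAT2 to GRCm38 and counted with HTSeq, and the tool versions and the strand setting of counting are not given in the sources used here. Starts in the files count from 0 and were written from 1. Gene symbols came from GENCODE M21 (53620 of 53801 identifiers matched), as did the longest transcript, its GC content and the exon positions. Counts were divided by the library total and multiplied by 1000000 (CPM). Ratios of genes with 0 counts in library 1 use a floor of 3 counts, and other ratios carry exact 95% Clopper-Pearson intervals. The reads carry no molecular identifiers, so intervals cover counting error only.

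The members and gene lists were chosen with earlier results of these data known. Named were all 10 members, the list genes that describe each list, and the 10 genes most like them (at most 3 counts in library 1, ranked by level in library 2). The neighbours and promoters named were those of the members. With 1 group of 2 mice there is no comparison between conditions and no test was run. Alternatives for scaling were TMM (edgeR 4.0.16) and DESeq2 1.42.0 size factors in R 4.3.3, and totals without mitochondrial genes. Further alternatives were other floors, folds and filters, merged exons as length, leaving out each library, and an adjustment for GC content and length. The adjustment subtracted the median log2 ratio of genes in the same bin of 10 by GC and of 10 by length. Where fewer than 20 genes shared both bins, the GC bin alone was used. The scripts (Python 3.11.15, numpy 2.4.6, scipy 1.17.1, pandas 2.3.3, matplotlib 3.10.9) were tested on simulated counts.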

Additional observations from a re-analysis of the deposited data

How the results depend on the processing

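The number of members at least 4-fold higher in library 2 was 8 with TMM sizes, without mitochondrial genes, with a floor of 1 count, with no filter and after GC and length adjustment, 9 with DESeq2 size factors, 10 at 2-fold and 7 at 8-fold, and 1 (Prg2) with at least 10 counts in both libraries, a filter that removes the other 9. The share of counted genes that were higher was 6.03% with a floor of 1 count, 11.2% at 2-fold, 1.4% at 8-fold, 2.04% with at least 10 counts in both libraries and 1.16% with no filter. The share that were lower was 5.58% with DESeq2 size factors, 26% at 2-fold, 1.74% at 8-fold, 2.84% with no filter and 3.96% after GC and length adjustment. The genes of the 10 further lists that were higher numbered 22 at 2-fold, 9 at 8-fold and 6 with at least 10 counts in both libraries. The median log2 ratio of all counted genes was −0.18 by total, 0.02 with TMM, 0.09 with DESeq2 and 0.00 after GC and length adjustment, and the log2 ratio of every member stayed above 0 in each of these. For the 5 members with 0 counts in library 1 the ratio uses the floor of 3 counts and has no interval. After GC and length adjustment it went from 9.81 to 9.55 for Prss34, 8.14 to 7.79 for Mcpt8, 5.52 to 5.09 for Fcer1a, 4.23 to 4.11 for Ms4a2 and 4.26 to 4.46 for Epx. The other 5 stayed within their counting intervals, Gata2 moving furthest, from 2.97 to 4.36. With merged exons 6 members kept their place in the order. Leaving out each library gave a range of 0.257 to 169 CPM for the genes of basophils or of basophils and mast cells, 1.37 to 39.8 CPM for the eosinophil genes and 0.171 to 0.462 CPM for Tpsb2, and with 2 libraries this range says nothing about stability. Without Prss34 the mean sum of the first group was 26.8 CPM in place of 84.4. No paired analysis was possible because both libraries belong to 1 group. Depth limits library 1 most, where a gene below 0.128 CPM can have no read.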

Other observations

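Some genes of NK and cytotoxic cells had a few reads, mainly in library 2. Klrb1c, an NK cell receptor gene, had 0 and 18 counts, and Ncr1, another, had 0 and 5. Gzmb, a relative of Mcpt8 in the same gene cluster, had 1 and 22 counts, a ratio of 12.5 (interval 2.02 to 516).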
